A study of Mus musculus with 36 samples.

Results

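The Irx3 and Irx5 locus was taken as the stretch of mouse chromosome 8 from 93700000 to 95500000 (mm9), 1.8 Mb that hold Fto, Irx3, Irx5 and Irx6. Its members were all H3K27ac peaks overlapping that stretch in 18 deposited lists, 563 of 732259 peaks in all. They merged into 61 of the 63594 regions that peaks of at least 2 libraries covered across the genome. The choice used position alone.

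The libraries are H3K27ac ChIP-seq of forelimbs pooled from FVB mouse embryos at embryonic day 11.5. Acetylation of lysine 27 on histone H3 marks active promoters and enhancers. There were 4 libraries of mm1179 KO embryos, 2 each of hs72, hs1262, hs1467, hs1586 and hs1603 KO embryos, and 4 of wild-type (WT) embryos, and each KO line lacks the limb enhancer it is named for. No other allele or treatment was given, all genotypes share strain and stage, and a pool of forelimbs mixes every cell type of the limb bud, so a mark kept in few cells and a weak mark in many cannot be told apart. Whether the KO embryos were homozygous is not given. The mm1179 and hs1586 enhancers are known to act on Gli3, a transcription factor of the Hedgehog pathway.

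Irx3, Irx5 and Irx6 form one of the mouse Iroquois clusters, and they encode homeodomain transcription factors of the TALE class. In the mouse limb bud Irx3 and Irx5 act early and redundantly, and embryos that lack both genes lose anterior and proximal skeletal elements of the hindlimb. Hedgehog signalling counteracts the domain in which they act. Introns of the neighbouring gene Fto, which encodes an RNA demethylase, are known to hold distant enhancers of Irx3. Irx6 is best known from retinal bipolar cells of the mouse.

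A tag in the deposited file names, which the labels do not explain, put the libraries into 4 sets, called file tags 1 to 4 here. Tag 1 held replicates 1 and 2 of mm1179 KO and WT, and tag 2 held both hs72 KO libraries and replicates 3 and 4 of mm1179 KO and WT. Tag 3 held replicate 1, and tag 4 replicate 2, of hs1262, hs1467, hs1586 and hs1603 KO, with no WT library. The lists held 30719 to 45267 peaks in tags 1 and 2, 26550 to 32472 in tag 3 and 54375 to 58753 in tag 4. Read depth is unknown, so a missing peak shows only that no call was made. Nothing in the labels says that replicates came from separate litters, so p-values measure the spread between libraries, which may be technical. The limb identity of the tissue was not checked against marker genes, since no annotation of mm9 was used here.

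In the RefSeq gene order (GRCm38.p6, another build, used for order only) the protein-coding genes run Rpgrip1l, Fto, Irx3, Irx5, Irx6, Mmp2, Lpcat2, Capns2 and Slc6a2. The long non-coding RNA gene Irx3os follows Irx3 directly, and the long non-coding RNA gene Crnde directly precedes Irx5. Irx3 lies near 94.32 Mb and Irx5 near 94.88 Mb in mm9, known here only to about 10 kb, and the window of each gene was set at 10 kb on either side. Irx6, Fto and the other neighbours were not placed, so peaks beyond Irx5 are given by distance and not by gene. The RefSeq promoters (GRCm38.p6) of Irx3, of Irx3os and of Crnde, the start site next to Irx5, are shown because the windows of Irx3 and Irx5 held no peak in any library of one file tag. Each is the 250 bases before the start of the gene, 5′ to 3′ on its own strand, with every CG dinucleotide in capitals.
Irx3, chr8:91801655-91801904, minus strand: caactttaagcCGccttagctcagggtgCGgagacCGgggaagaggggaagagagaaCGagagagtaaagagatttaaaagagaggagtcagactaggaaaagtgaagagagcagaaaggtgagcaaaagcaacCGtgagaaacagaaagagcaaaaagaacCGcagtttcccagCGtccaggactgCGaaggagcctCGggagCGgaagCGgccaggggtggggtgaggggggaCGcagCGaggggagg
Irx3os, chr8:91803086-91803335, plus strand: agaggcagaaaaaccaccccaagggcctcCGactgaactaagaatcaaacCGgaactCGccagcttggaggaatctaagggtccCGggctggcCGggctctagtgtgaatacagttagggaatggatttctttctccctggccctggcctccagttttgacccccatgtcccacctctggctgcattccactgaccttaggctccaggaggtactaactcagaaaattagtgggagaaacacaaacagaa
Crnde, chr8:92356121-92356370, minus strand: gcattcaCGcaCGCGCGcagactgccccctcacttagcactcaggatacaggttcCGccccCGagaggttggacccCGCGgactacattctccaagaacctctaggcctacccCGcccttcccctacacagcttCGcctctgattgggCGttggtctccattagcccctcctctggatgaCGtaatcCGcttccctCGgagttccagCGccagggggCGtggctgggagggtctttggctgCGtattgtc

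The Irx3 promoter held 13 CG dinucleotides at 56% G and C, the Irx3os promoter 5 at 52.8%, and the Crnde promoter 17 at 62%. Over the 32851 RefSeq promoters of this length the medians were 6 CG dinucleotides and 52.4% G and C. Both strands were searched for the GC box GGGCGG, the CCAAT box CCAAT, the TATA box TATAAA and the GLI site TGGGTGGTC, 4 motifs none of which contains another. The Crnde promoter held 2 GC boxes and 1 CCAAT box, and no other match was found in the 3 promoters. Among all promoters 32.7% held a GC box, 33.8% a CCAAT box, 12.4% a TATA box and 0.225% the GLI site. A match describes letters, and nothing follows from its absence in so short a window.

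The promoter domains of Irx3 and Irx5, meaning the peaks in their windows, were called in all 14 libraries of tags 1, 2 and 4, and neither was called in any of the 4 libraries of tag 3. Within the 20 kb window of Irx3, peaks covered 6.97, 3.98, 4.16 and 4.76 kb in mm1179 KO forelimbs. They covered 3.37 and 4.04 kb in hs72 KO forelimbs. In the 4 WT libraries the covered length at Irx3 was 4.01, 5.54, 3.56 and 3.07 kb. The mm1179 KO, hs72 KO and WT values overlapped, with the highest in mm1179 KO replicate 1 and the lowest in WT replicate 4.

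Tag 4 stood apart at Irx3, with 8.89 kb covered in hs1262 KO replicate 2, 8.83 kb in hs1467 KO replicate 2, 8.92 kb in hs1586 KO replicate 2 and 7.74 kb in hs1603 KO replicate 2. Replicate 1 of each of these lines, in tag 3, had 0 kb. Every genotype that lacked the Irx3 peak in one library therefore had a wide one in its other library. The same tag 4 lists were also the broadest over the genome, at 140.9 to 166 Mb of covered sequence, with 89.6 to 93.6 Mb in tag 3 and 62.6 to 115.3 Mb in tags 1 and 2, and the part of list breadth in the window values was not tested.

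The Irx5 window showed the same split by file tag. Peaks covered 6.96, 4.48, 3.41 and 6.32 kb in mm1179 KO, 3.18 and 3.81 kb in hs72 KO, and 5.28, 6.11, 2.96 and 3.21 kb in WT forelimbs. In tag 4 the covered length at Irx5 was 10.7 kb in hs1262 KO, 10.7 kb in hs1467 KO, 10.8 kb in hs1586 KO and 8.75 kb in hs1603 KO, and in tag 3 it was 0 kb in all 4 lines. Here too the mm1179 KO, hs72 KO and WT values overlapped.

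**Figure D1:**
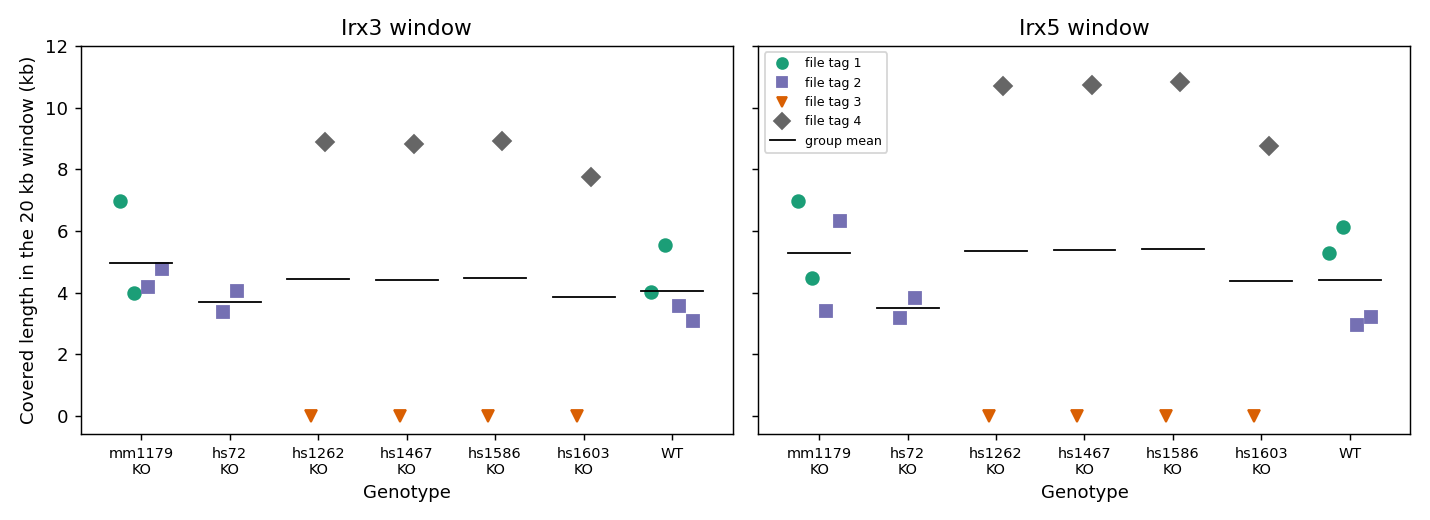
Sequence covered by H3K27ac peaks (kb) in the 20 kb windows of Irx3 (left) and Irx5 (right), with 1 point per library, shape and colour for the file tag, and a line at the mean of each genotype. The 4 tag 3 libraries sit at 0 in both windows and the 4 tag 4 libraries lie above all others, while mm1179 KO, hs72 KO and WT points overlap.

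At neither promoter did a test separate a KO line from the libraries it was compared with. Only mm1179 KO had enough libraries for an exact permutation p below 0.05, so for the other lines the tests could not decide. At Irx3 the covered length averaged 4.97 ± 1.37 kb in mm1179 KO and 4.04 ± 1.07 kb in WT (SD, n = 4 each), a difference of 0.925 kb (two-sided, exact permutation p = 0.371). At Irx5 it averaged 5.29 ± 1.64 kb in mm1179 KO and 4.39 ± 1.55 kb in WT (SD, n = 4 each), a difference of 0.898 kb with an exact permutation p of 0.429. Within tag 1 the Irx3 and Irx5 differences were 0.703 and 0.021 kb (exact permutation p = 1 for both), and within tag 2 they were 1.15 and 1.78 kb (exact permutation p = 0.333 for both, the smallest that 2 libraries against 2 can give). The smallest p that 4 libraries against 4 allow is 0.0286. With 1 library left out, the Irx3 difference ran between 0.259 kb without mm1179 KO replicate 1 and 1.42 kb without WT replicate 2. The Irx5 difference ran between 0.341 kb without mm1179 KO replicate 1 and 1.53 kb without mm1179 KO replicate 3. It was 0.146 kb both for scores of at least 100 and on lists of equal length, and 0.201 kb in windows of 5 kb either side, where the Irx3 difference was 0.473 kb.

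The hs72 KO libraries were set against the WT libraries of the same tag. Covered length at Irx3 averaged 3.71 ± 0.47 kb in hs72 KO and 3.31 ± 0.35 kb in WT (SD, n = 2 each; exact permutation p = 0.667). At Irx5 the averages were 3.50 ± 0.45 kb in hs72 KO and 3.09 ± 0.18 kb in WT (SD, n = 2 each; exact permutation p = 0.667). The smallest p this design allows is 0.333. The differences were 0.394 kb at Irx3 and 0.407 kb at Irx5. They were 0.059 and 0.0915 kb without hs72 KO replicate 2, and 0.73 and 0.724 kb without hs72 KO replicate 1. Scores of at least 100 gave 1.09 kb at Irx3 and 0.637 kb at Irx5, equal lists gave 1.09 and 1.21 kb, and the 5 kb window gave 0.138 kb at Irx3. Against all 4 WT libraries the sign turned, to -0.335 kb at Irx3 and -0.898 kb at Irx5 (exact permutation p = 0.8 and 0.467), the WT libraries of tag 1 having the wider domains.

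The other 4 lines share no tag with WT, so genotype and tag cannot be told apart in a comparison with WT, and each was set against the other 3 lines of its tag. Since all had 0 kb in tag 3, only tag 4 can separate them at the promoters. There hs1603 KO had 7.74 kb at Irx3, against a mean of 8.88 kb in the other 3 lines, and 8.75 kb at Irx5, against 10.8 kb, and it lay below each of them in both windows. In the exact permutation test of the line label within tags, p was 0.25 at both genes for hs1603 KO and 0.5 at both for hs1586 KO. For hs1262 KO it was 0.75 at Irx3 and 1 at Irx5, and for hs1467 KO 1 at Irx3 and 0.75 at Irx5 (exact permutation, as above). Because every line had 0 kb in tag 3, the smallest p these window tests allow is 0.25. The hs1603 KO difference over both tags was -0.573 kb at Irx3 and -1.01 kb at Irx5. It was -1.21 and -2.05 kb on lists of equal length. In windows of 5 kb either side it was -0.14 and -0.263 kb, and in windows of 25 kb either side -1.11 and -1.38 kb. Covered lengths stop at the window edge, and the tag 4 domains of Irx3 ran past it, to 10.4 to 11.5 kb beyond the Irx3 position. Over all 18 tests on the locus the lowest Benjamini-Hochberg adjusted p of the exact permutation tests was 0.926. Even with every test at its smallest exact permutation p, from 0.0286 for mm1179 KO to 0.333 for hs72 KO, none could pass this adjustment. The adjusted values therefore could not decide whether any line differed.

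The acetylated domain of Irx3 began between 1.08 and 2.67 kb beyond the 94.32 Mb position in the 14 libraries that had it, and that of Irx5 between -2.49 and 0.564 kb from the 94.88 Mb position, a negative value lying on the side of Irx3. As merged regions they ran from 94321112 to 94331417 at Irx3 and from 94877729 to 94888571 at Irx5, 10306 and 10843 bp wide. In tags 1 and 2 the widest single peak at Irx3 was 4643, 3984, 4164 and 4757 bp in mm1179 KO, 1812 and 4043 bp in hs72 KO, and 4005, 5540, 3559 and 1676 bp in WT. The short values of hs72 KO replicate 1 and WT replicate 4 came with a domain called as 2 adjacent peaks. At Irx5 the widest peak was 4543, 4477, 3408 and 4118 bp in mm1179 KO, 2031 and 3811 bp in hs72 KO, and 5283, 6113, 2963 and 1607 bp in WT.

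Single peaks of over 10 kb spanned both domains in 3 of the tag 4 libraries. They measured 10288 bp at Irx3 and 10691 bp at Irx5 in hs1262 KO, 10357 and 10739 bp in hs1467 KO, and 10337 and 10843 bp in hs1586 KO, with width percentiles of 98.9 to 99.2 in their lists. In hs1603 KO replicate 2 the domains were split, and the widest peaks were 6458 bp at Irx3 and 6656 bp at Irx5, at width percentiles of 97.1 and 97.4. The width percentile of the widest peak at Irx3 was 90.1 or more in mm1179 KO, 47.5 and 90.4 in hs72 KO, and 94.3, 97.2, 91.2 and 39.6 in WT. The widest Irx3 peak exceeded the median width of its own list in 12 of 14 libraries and the widest Irx5 peak in 13 of 14.

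Ranked by score within its own list, the highest peak at Irx3 stood at percentiles of 91.2, 88.7, 78.8 and 70.2 in mm1179 KO, at 49.8 and 79.5 in hs72 KO, and at 86.5, 89.2, 71.2 and 42.0 in WT forelimbs. The score is the peak caller's own value, percentiles are mid-ranks, and ranks from lists of unequal length show no change, so no test was made of them. In tag 4 the Irx3 peak stood at 96.7 in hs1262 KO, 93.3 in hs1467 KO, 96.5 in hs1586 KO and 92.0 in hs1603 KO. In tags 1 and 2 the lowest percentile was that of WT replicate 4 and the highest that of mm1179 KO replicate 1, and the 3 genotypes overlapped.

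At Irx5 the score percentile was 84.4, 77.3, 64.7 and 76.0 in mm1179 KO, 45.6 and 69.3 in hs72 KO, and 83.0, 87.2, 67.1 and 42.5 in WT. It was 96.7 in hs1262 KO, 91.3 in hs1467 KO, 93.0 in hs1586 KO and 90.1 in hs1603 KO of tag 4. Irx3 ranked above Irx5 in 11 of the 14 libraries with both peaks and level with it in 1, while its covered length was the longer in 5 of 14. In WT replicate 4 and mm1179 KO replicate 4 Irx5 ranked higher.

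**Figure D2:**
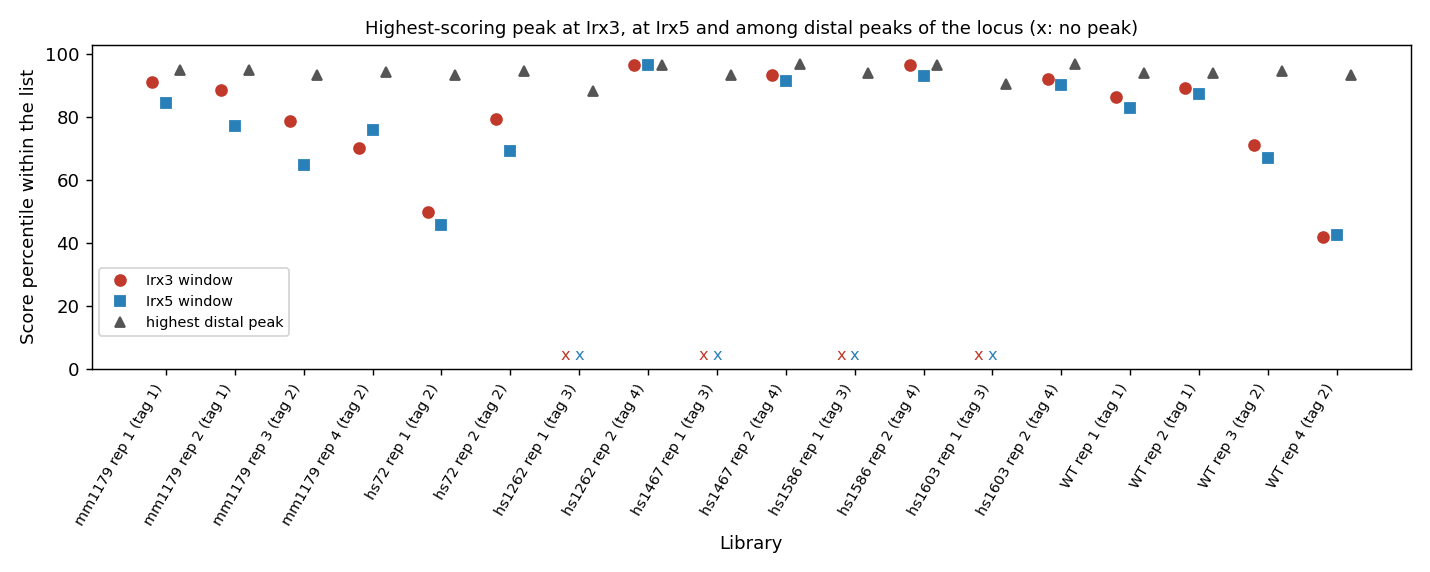
Score percentile within each list of the highest-scoring peak in the Irx3 window, in the Irx5 window and among the distal peaks of the locus, by library. Irx3 ranges between 42.0 and 96.7 and lies above Irx5 in 11 of 14 libraries, and crosses mark the 4 tag 3 libraries with neither peak, whose highest distal peak still stood at 88.4 to 94.1.

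The highest-scoring peaks of the locus lay away from both gene windows in most libraries. Distal here means only outside both gene windows. Since Irx6, Mmp2 and the other neighbours were not placed, a distal peak may lie at the promoter of another gene. In 12 of the 14 libraries with promoter peaks the highest-scoring distal peak outscored both promoters, and in the other 2, hs1262 KO and hs1586 KO of tag 4, it tied with a promoter at the score of 3100, which 3727 and 3835 peaks of those lists reached or passed. In 9 of the 10 libraries of tags 1 and 2 it was the peak in a region from 95349410 to 95353180, 471.3 kb beyond the Irx5 position. That region stood at a mean score percentile of 94.3 in mm1179 KO, 94.0 in hs72 KO and 94.0 in WT forelimbs. In hs72 KO replicate 1 the highest was a peak in a region from 93965360 to 93971937, 351.4 kb before the Irx3 position on the side of Fto. This second region was called in all 18 libraries, at mean percentiles of 88.3 in mm1179 KO, 93.7 in hs72 KO, 89.9 in hs1262 KO, 95.2 in hs1467 KO, 95.3 in hs1586 KO, 84.8 in hs1603 KO and 89.1 in WT.

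**Figure D3:**
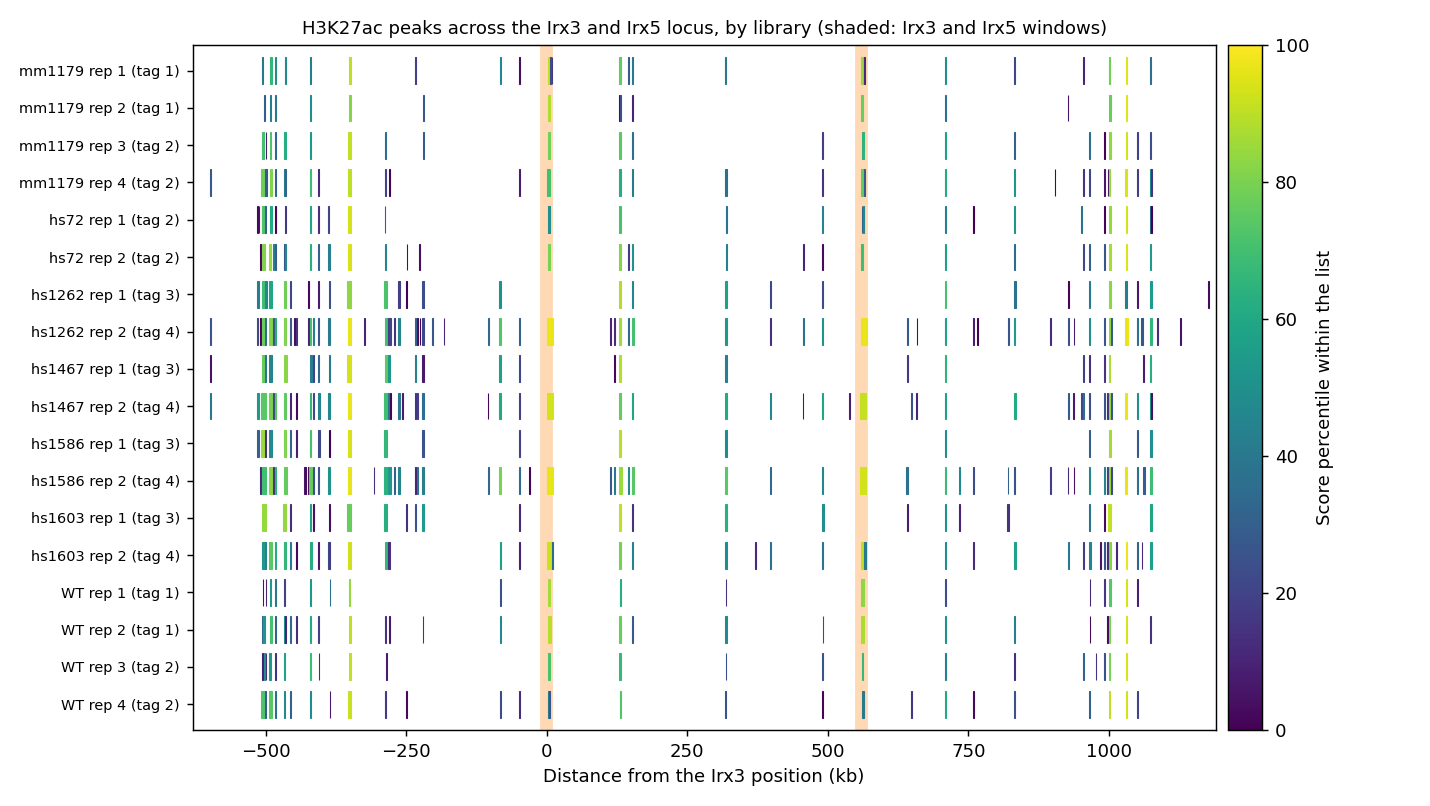
Every H3K27ac peak of the locus by library, placed by distance (kb) from the Irx3 position and coloured by score percentile within its list, with the Irx3 and Irx5 windows shaded. Peaks crowd between about 516 and 219 kb before Irx3, and the shaded windows are empty in the 4 tag 3 libraries. A column of bright peaks stands 351 kb before Irx3 in all libraries. Another stands 1031 kb beyond Irx3 in the libraries of tags 1, 2 and 4.

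Distal acetylation was most dense on the Fto side of Irx3. Of the 61 regions, 27 lay before Irx3, 9 between the genes and 23 beyond Irx5, with 1 in each gene window. A stretch from 93804209 to 94101397 held 23 of the 27, and by the gene order it lies on the side where Fto is the nearest protein-coding gene to Irx3. Of these 23, 6 were called in all 4 WT libraries and 2 in all 18 libraries, since calls in any 2 libraries made a region. The longest stretch without any region, 162.5 kb from 94474503 to 94637021, lay between Irx3 and Irx5. In tags 1 and 2, peaks covered a median of 4.03% of the sequence before Irx3, 1.24% between the genes and 2.12% beyond Irx5. In all 18 libraries the zone before Irx3 had the highest covered share of the 3 and the zone between the genes the lowest.

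Before Irx3, covered length was 17.7, 11.8, 25.1 and 32.9 kb in mm1179 KO, 24.1 and 33.3 kb in hs72 KO, and 14.02, 27.7, 17.5 and 29.0 kb in WT forelimbs. It was 42.5 to 49.7 kb in tag 3 and 43.1 to 78.7 kb in tag 4, above all values of tags 1 and 2. The tag 3 libraries, with no peak in either gene window, thus had more distal sequence called before Irx3 than any WT library. Between the genes the range was 3.90 to 8.96 kb in mm1179 KO, 6.35 to 11.1 kb in hs72 KO, and 3.30 to 8.03 kb in WT. There it was 6.76 to 13.0 kb in tag 3, which overlapped WT, and 13.4 to 22.9 kb in tag 4. Beyond Irx5 it was 7.28 to 22.0 kb in mm1179 KO, 16.6 to 17.3 kb in hs72 KO, and 9.44 to 13.43 kb in WT. In tag 3 it was 13.19 to 22.2 kb, again overlapping WT, and in tag 4 29.7 to 43.1 kb.

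**Figure D4:**
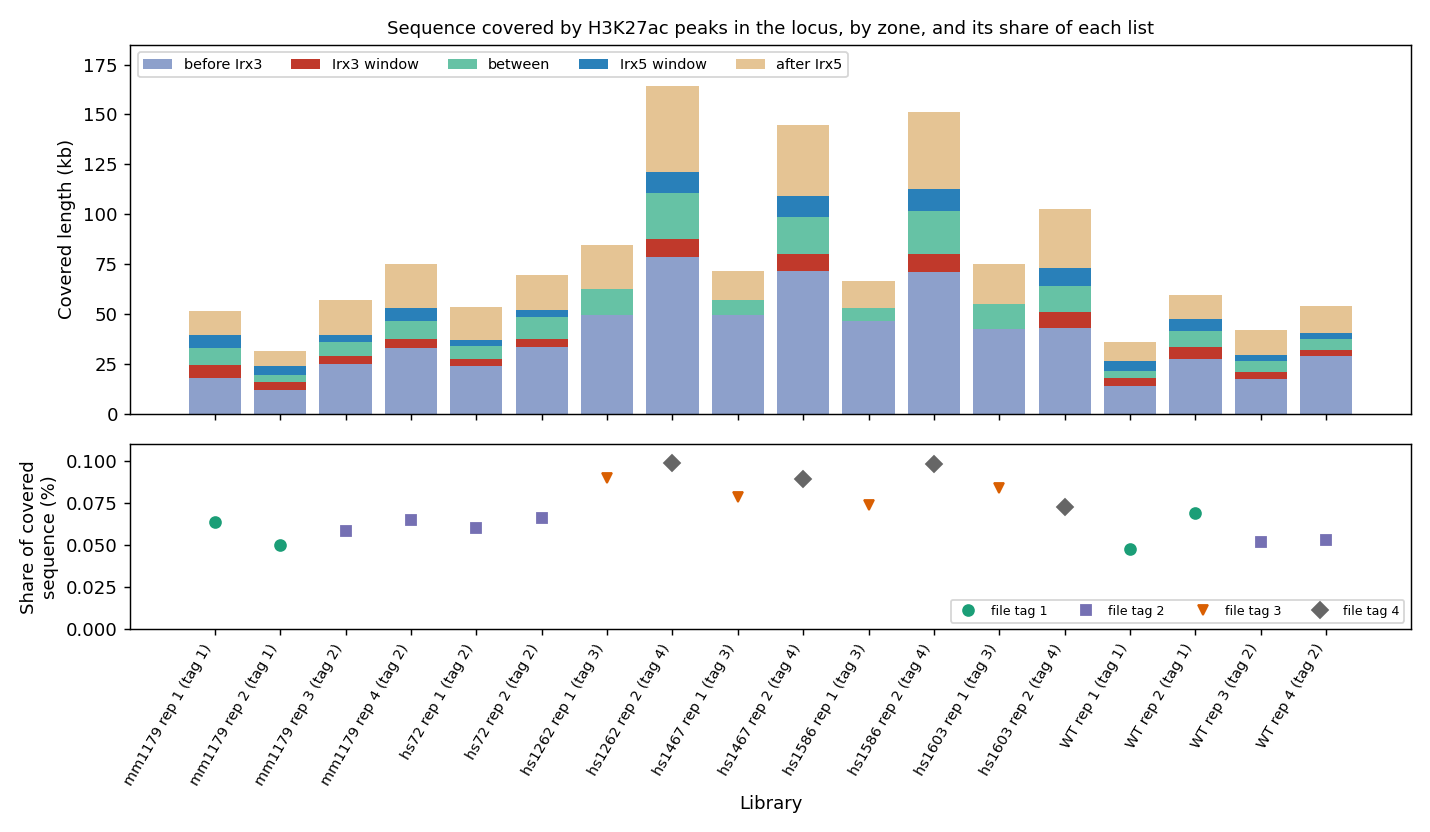
Top, covered length (kb) of the locus by library, stacked by zone. Bottom, the share of each list's covered sequence that lies in the locus (%), with shape and colour for the file tag. Tag 3 bars lack the Irx3 and Irx5 windows, and the share is 0.0729% or more in every tag 3 and tag 4 library and 0.0692% or less in every library of tags 1 and 2.

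Over the whole locus, peaks numbered 25, 15, 22 and 32 in mm1179 KO, 29 and 30 in hs72 KO, and 19, 28, 22 and 28 in WT. They covered 51.7, 31.5, 56.8 and 74.9 kb in mm1179 KO, 53.6 and 69.6 kb in hs72 KO, and 36.0, 59.5, 42.1 and 54.2 kb in WT. To allow for the breadth of the lists, the covered length was divided by that of the whole list. This share averaged 0.0594% ± 0.0068 in mm1179 KO and 0.0554% ± 0.0095 in WT (SD, n = 4 each; exact permutation p = 0.514). The difference of 0.00401 percentage points was 0.00926 within tag 2 (exact permutation p = 0.333) and -0.00125 within tag 1 (exact permutation p = 1), so the sign turned between the tags. Without WT replicate 1 it was 0.00138, and without WT replicate 2 it was 0.0086. Scores of at least 100 gave 0.00166 and equal lists 0.00798.

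In hs72 KO the share was 0.0604% and 0.0660%, against 0.0517% and 0.0533% in the WT libraries of the same tag. The groups did not overlap, and their difference was 0.0107 percentage points, or 0.0168 on equal lists. The exact permutation p of 0.333 is the smallest that 2 libraries against 2 can give. Against all 4 WT libraries the difference was 0.00774 (exact permutation p = 0.4), and WT replicate 2 of tag 1, at 0.0692%, lay above both hs72 KO libraries. mm1179 KO replicates 3 and 4 of the same tag as hs72 KO, at 0.0585% and 0.0650%, also lay above both of its WT libraries. Among the other lines the share in tag 3 was 0.0903% in hs1262 KO, 0.0786% in hs1467 KO, 0.0742% in hs1586 KO and 0.0838% in hs1603 KO. In tag 4 it was 0.0989% in hs1262 KO, 0.0892% in hs1467 KO, 0.0983% in hs1586 KO and 0.0729% in hs1603 KO. Only hs1262 KO exceeded each of the other 3 lines in both tags, with an exact permutation p of 0.188, where the smallest that the locus share allows is 0.0625. Its difference of 0.0118 percentage points was -0.000142 with scores of at least 100 and 0.00218 on equal lists (exact permutation p = 0.938 and 0.812). The hs1603 KO difference of -0.00993 turned to 0.00468 with scores of at least 100. The p of the same exact permutation test was 0.312 for hs1603 KO, 0.812 for hs1467 KO and 1 for hs1586 KO. Among all windows of 1.8 Mb in the genome, the locus stood at the 49.1 to 60.7 percentile of covered length in tags 1 and 2 and at 61.2 to 74.0 in tags 3 and 4.

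Region by region, the locus held 13 regions called in all 4 WT libraries, or 21.3% of its 61, against 36.4% of regions over the genome. It held 5 called in all 18 libraries, or 8.2%, against 16.5% over the genome. Those 5 lay 503.8 and 351.4 kb before Irx3, 131.0 kb beyond Irx3, and 149.8 and 441.9 kb beyond Irx5. Of the 61 regions, 9 were called in tag 4 alone, 14.8% against 7.66% over the genome.

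Besides the region 351.4 kb before Irx3, the highest-ranking distal regions on the Fto side lay from 93826457 to 93830996, from 93898130 to 93901736, from 93810808 to 93821643 and from 93852369 to 93857407. Their mean score percentiles in WT were 63.4, 57.5, 45.9 and 44.1, and each was called in 17 or 18 libraries. The region 10836 bp wide at 93810808 stood at 54.3 in mm1179 KO, 76.8 in hs72 KO and 45.9 in WT. Its mean percentile was 32.8 in tag 1 and 70.6 in tag 2. Within tag 2 it stood at 70.1 and 77.9 in mm1179 KO, 72.5 and 81.2 in hs72 KO, and 49.5 and 72.2 in WT.

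Between the genes, the leading region lay from 94448926 to 94453007, 131.0 kb beyond Irx3, and was called in all 18 libraries. Its score percentile was 76.1, 23.7, 74.6 and 61.8 in mm1179 KO, 71.3 and 81.6 in hs72 KO, and 63.2, 77.2, 67.6 and 72.7 in WT. mm1179 KO replicate 2, the low value, has the shortest list of tags 1 and 2. The other regions named between the genes were weaker, from 94637022 to 94640375 at a mean percentile of 37.7 in the 2 mm1179 KO libraries that called it and 27.9 in the 4 WT libraries. The last, from 94810379 to 94812438, stood at 16.5 in 2 mm1179 KO libraries and 16.3 in 3 WT libraries.

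Beyond Irx5 the second region by rank, from 95319776 to 95323992, was called in all 18 libraries, with mean percentiles of 80.6 in mm1179 KO, 85.7 in hs72 KO, 83.1 to 86.0 in the 4 lines of tags 3 and 4, and 80.5 in WT. The third, from 95028592 to 95031040, was also called in all 18, at 51.3 in mm1179 KO, 49.5 in hs72 KO and 44.2 in WT. The remaining named regions, from 95151828 to 95154126 and from 95285274 to 95287395, were each called in 3 of 4 WT libraries, at mean percentiles of 27.1 and 15.1.

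**Figure D5:**
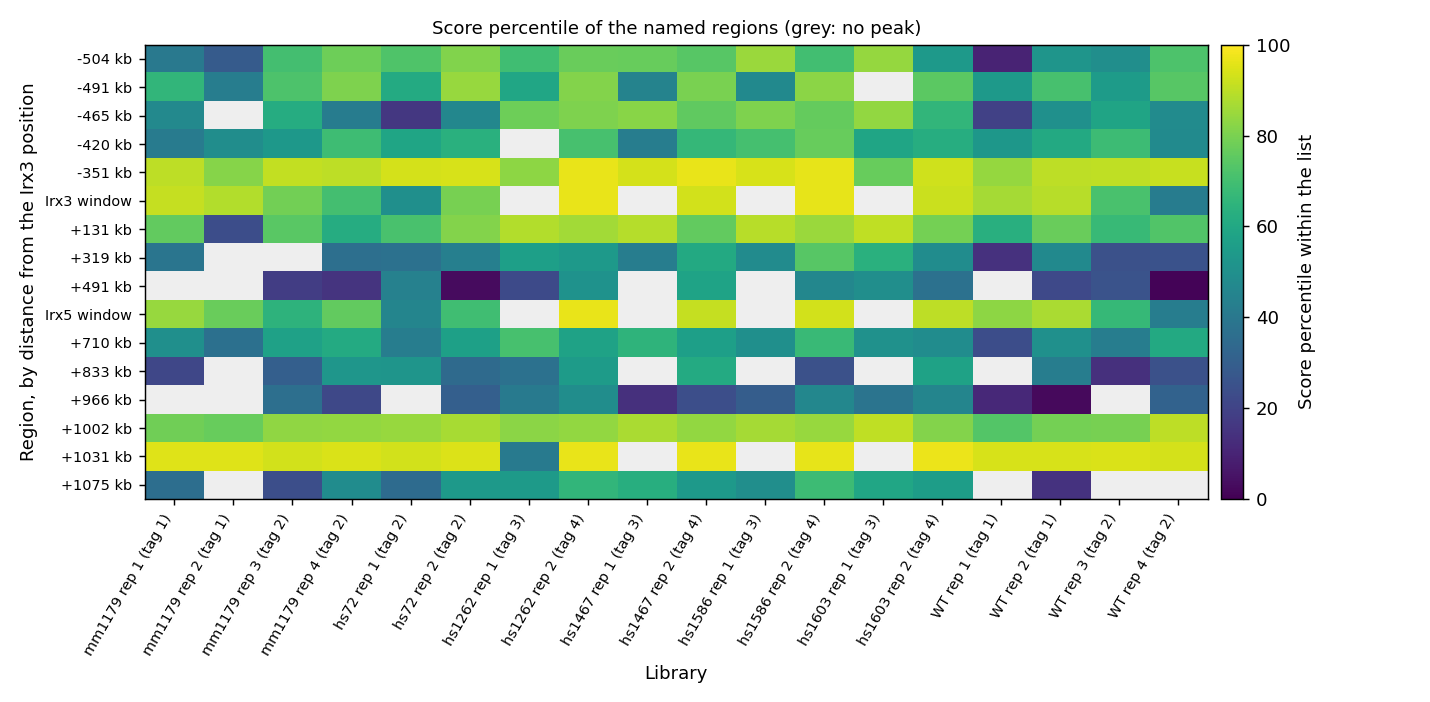
Score percentile within each list of the named regions of the locus, one row per region by distance (kb) from the Irx3 position and one column per library, grey where no peak was called. The rows 351 kb before and 1002 kb beyond Irx3 are filled in all libraries, while the Irx3 window, Irx5 window and the row 1031 kb beyond Irx3 are grey in most or all of the 4 tag 3 columns.

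The tag 3 libraries lacked both promoter domains and kept other regions of the locus. Of 11 regions called in all 14 other libraries, 3 were called in no tag 3 library, or 27.3%, against 23.5% of such regions over the genome, so the share lay near the background. The 3 were the Irx3 domain, the Irx5 domain and a region from 93836218 to 93838421, at mean WT percentiles of 72.2, 69.95 and 30.02. Whether regions outside the gene windows lie at promoters of other genes was not determined. The gaps are therefore not shown to be particular to Irx3 and Irx5. The region that led the locus in WT, 471.3 kb beyond Irx5, was called in 1 tag 3 library alone, hs1262 KO replicate 1, at the 41.4 percentile. All 4 tag 3 libraries called 5 of the 11, or 45.5% against 55.2% over the genome, among them the region 131.0 kb beyond Irx3, at a mean percentile of 89.2 in tag 3. This count was made after the values had been seen. Tag 3 lists had wider peaks than tags 1 and 2, with median widths of 2295 to 2790 bp against 1728 to 2139 bp. Median widths in tag 4 were 2150 to 2343 bp, which overlapped tag 3. In tag 3, 3 of the 4 lists were shorter than every list of the other tags. The part of peak width or list length in these gaps was not tested.

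No region of the locus separated mm1179 KO from WT. Of 38 regions called in any of these 8 libraries, 0 were called in all 4 mm1179 KO and no WT library, where 0.0348% of regions over the genome were, and 0 in all 4 WT and no mm1179 KO library, against 0.0769% over the genome. After Benjamini-Hochberg adjustment of a Fisher's exact test per region, 0 of 54583 regions passed, a share of 0%. At an unadjusted exact p under 0.05 there were 61 over the genome and 0 in the locus, and the smallest p of 4 libraries against 4, 0.0286, cannot pass after adjustment over that many regions. The nearest case, chosen after its values were seen, lay from 94471188 to 94474502 between the genes, called in all 4 mm1179 KO libraries and in WT replicate 2 alone, so that without that library it counted as 1 region of mm1179 KO only.

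Between hs72 KO and the WT libraries of its tag, 1 of 36 regions was called in both hs72 KO and neither WT library, or 2.78% against 2.46% over the genome. It lay from 95392926 to 95396844, at a mean percentile of 44.6 in hs72 KO, and was also called in 3 of 4 mm1179 KO libraries and in WT replicate 2 of tag 1. The opposite pattern was found in 0 of 36, against 2.24% over the genome. With 1 library left out, the hs72 KO count was 6 without hs72 KO replicate 1 and 3 without hs72 KO replicate 2. It was 3 without WT replicate 3 and 2 without WT replicate 4, and the WT count was 5 without WT replicate 3. Fewer libraries have to match in these counts, and the share over the genome under that looser rule was not computed. The same Fisher's exact test, adjusted in the same way, passed 0 of 50578 regions, or 0%, with 0 at an unadjusted exact p under 0.05, as 2 libraries against 2 cannot go below 0.333.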

How the data were processed

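One peak list per H3K27ac ChIP-seq library was used for 18 libraries; the 18 input samples were not analysed here. Per the submitters' processing notes, the tools were MACS 1.4.2, Bowtie 0.12.8, cutadapt 1.1 and bcl2fastq 2.17, on mm9; whether inputs served as controls is not given in the sources used here. The deposited score of each peak, from 40 to 3233, is the authors' own value and was used only to filter and rank peaks within a list. Consensus regions were stretches covered by at least 2 libraries, called by an overlap of 1 bp. Positions are 1-based mm9. Covered lengths were tested by permuting library labels exactly and two-sided, and the 18 tests were adjusted together (Benjamini-Hochberg). Alternatives were a minimum score of 100, equal lists of 26550 peaks, gene windows of 5 or 25 kb either side, autosomes alone, 50% of a region covered, regions of 1 library, replicate blocks, single file tags and left-out replicates. Named regions were those in the gene windows, up to 5 per zone with the highest mean WT percentile among those called in 3 of 4 WT libraries, and those separating the groups compared. The members and lists were chosen with earlier results of these data known. A planned check of limb marker genes and other Irx genes was not run, for want of an mm9 annotation. The count of separated regions was run on simulated calls with planted losses, whose recovery was fixed in advance. The permutation tests and the merging of regions were run on small made-up examples, and the other steps were not tested in this way. Scripts ran under Python 3.11.15 with scipy 1.17.1 and numpy 2.4.6; figures were drawn with matplotlib 3.10.9.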

Additional observations from a re-analysis of the deposited data

How the results depend on the processing

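Of 150 alternative values of the 18 differences, 131 kept their sign, 11 turned it and 8 were 0, and none reached an exact permutation p below 0.05. Many could not, having too few arrangements. These were hs72 KO against WT, lines compared within tags, and mm1179 KO within 1 tag or with the replicate block. Adding or removing the replicate block leaves a difference unchanged, so the kept sign there was fixed in advance. The 8 were the Irx3 and Irx5 windows of the 4 lines compared with each other, with tag 3 alone left. For mm1179 KO minus WT the locus share was -0.00125 percentage points within file tag 1. For hs72 KO minus all 4 WT libraries the covered length was -0.335 kb at Irx3 and -0.898 kb at Irx5. With scores of at least 100 the locus share of a line minus the others was -0.000142 in hs1262 KO, -1.96e-06 in hs1586 KO and 0.00468 in hs1603 KO, and on equal lists it was 0.00144 in hs1467 KO. The hs1262 KO difference at Irx5 was -0.203 kb in the 5 kb and -0.08 kb in the 25 kb window. Leaving out 1 replicate gave a locus share of -0.0100 to 0.0113 for hs1586 KO and -0.0226 to 0.00275 for hs1603 KO. The cause of these turns was not tested. Of 40 alternative counts of separated regions, 8 moved. With 1 library left out, fewer libraries have to match, and the share over the genome was not computed. Regions then numbered 0 to 1 for mm1179 KO only, 0 to 5 for WT only against hs72 KO, and 2 to 6 for hs72 KO only. The last count was 0 with scores of at least 100 and 2 on equal lists. With the replicate block, the mm1179 KO differences of 0.00401 percentage points, 0.925 kb at Irx3 and 0.898 kb at Irx5 had exact permutation p-values of 0.75, 0.375 and 0.375. Deviations of libraries with the same number correlated at 0.0111 to 0.0595, and 1 of 4 libraries correlated best with its own number, so the numbers were not taken as pairs. These correlations were all positive within a file tag, at 0.0111 to 0.0626, and all negative across tags, at -0.0616 to -0.0186. The main mm1179 KO tests did not hold the tag fixed, and the differences within each tag are given beside them. No such fit was run for hs72 KO, which shares no number with WT of its tag. Read depth was not at hand, so a region without a peak is a call not made.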
